A study of Danio rerio with 340 samples.

Results

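The genes described here are 4 genes of myelin in the zebrafish, mbpa, mbpb, mpz and cldnk, which were taken by gene symbol. All 4 were present among the 31658 genes that were counted. Expression was measured in 340 single whole larvae at 5 dpf with Lasy-Seq, which reads the 3′ ends of transcripts and gives each larva an index of its own. Larvae were of the strains AB, TU and WIK (from a stock center), RW (from a national resource) and PET (from a pet store), and each was exposed in a well of its own from 5 to 6 hpf until 5 dpf. Valproic acid, an antiepileptic drug that inhibits histone deacetylases, was given at 1, 5 and 20 µM or 0 to AB, TU, RW, WIK and PET, with 8 larvae per strain and dose. Hydroxyurea, an inhibitor of ribonucleotide reductase, was given at 1.3, 6.6 and 33 mM or 0, and warfarin, a vitamin K antagonist, at 150 and 300 µM or 0. Both of these experiments left out WIK and had 4 to 7 larvae per strain and dose. Each experiment had its own untreated larvae at 0. The compounds were dissolved in DMSO or water, and whether larvae at 0 received the solvent is not given in the sources used here. The number of biological replicates is given as 1, so the spread below is that between single larvae of 1 exposure, strain and clutch cannot be told apart, and p-values measure only this spread.

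Myelin is the layered membrane that oligodendrocytes in the brain and spinal cord, and Schwann cells in peripheral nerves, wrap around axons. In zebrafish it forms within the first days of life, and genes of its structural proteins are widely used as markers of mature myelinating glia. The genes mbpa and mbpb are the zebrafish copies of myelin basic protein, which holds the cytoplasmic faces of the membrane together. Myelin protein zero, encoded by mpz, is an adhesion protein of peripheral myelin in mammals, and in fish it is also found in central myelin. Claudin k, encoded by cldnk, is a tight junction protein of myelinating glia in fish.

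Single larvae held 124136 to 14186334 counts (median 2272278). Among the 89 untreated larvae, mbpa, mbpb, mpz and cldnk had a count in each. Defining genes of brain (elavl3), muscle, heart, skin, liver, gut, pancreas, lens, blood and islet had a count in all 89. In whole larvae, fewer myelinating cells and less RNA per cell cannot be told apart. Levels are given as CPM, which are counts scaled to a common library size with TMM factors of the experiment. A gene is called changed when its p-value (quasi-likelihood test of edgeR) was under 0.05 after Benjamini-Hochberg adjustment over all genes tested. Larvae within an experiment share 1 exposure, and CPM of different experiments were normalized separately. How reads shared by similar copies were counted is not given in the sources used here, so the division of counts between mbpa and mbpb is uncertain.

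All 4 genes were lower at 20 µM of valproic acid. The log2 fold change was -2.51 for mbpa, -1.98 for cldnk, -1.96 for mpz and -1.59 for mbpb. Over all 18192 genes tested, 11.5% were called lower at this dose, and the median log2 fold change was 0.09. At 5 µM, 3 of the 4 genes were called lower (mbpa, mbpb and mpz), where 2.17% of all genes tested were. At 1 µM none of the 4 was called, and 0.0055% of all genes tested were called in either direction.

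For mbpa, the level at 20 µM was 4.05 to 29.6 CPM with a median of 9.96, against 25.8 to 96.7 CPM with a median of 60.6 at 0 (40 larvae each). All 40 larvae at 20 µM were below every control of their own strain, and 38 were below every control of any strain. The mean was 62.2 ± 16.4 CPM at 0, 48.7 ± 21.9 at 1 µM, 36.8 ± 13.4 at 5 µM and 11.2 ± 6.25 at 20 µM (SD, n = 40 each). The log2 fold change against 0 was -0.37 (SE 0.12, adjusted p = 0.215 from edgeR) at 1 µM, -0.75 (SE 0.12, adjusted p = 9.62e-06) at 5 µM and -2.51 (SE 0.13, adjusted p = 2.54e-40) at 20 µM. Between 20 and 5 µM it was -1.76 (adjusted p = 5.90e-25), where 7.8% of all genes tested were called lower.

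The other copy, mbpb, had 12.3 to 84.4 CPM (median 39.0) at 20 µM, against 53.3 to 175 CPM (median 126) at 0. The ranges overlapped, but 39 of 40 larvae at 20 µM were below every control of their strain. Its mean was 123 ± 29.9 CPM at 0, 103 ± 40.2 at 1 µM, 89.2 ± 33.7 at 5 µM and 40.8 ± 14.5 at 20 µM (SD, n = 40 each). The log2 fold changes were -0.28 (adjusted p = 0.303) at 1 µM, -0.48 (adjusted p = 0.00438) at 5 µM and -1.59 (adjusted p = 3.21e-28, edgeR) at 20 µM, with an SE of 0.11 at each dose. The call at 5 µM was lost without PET larvae (log2 fold change -0.40, adjusted p = 0.164).

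**Figure D1:**
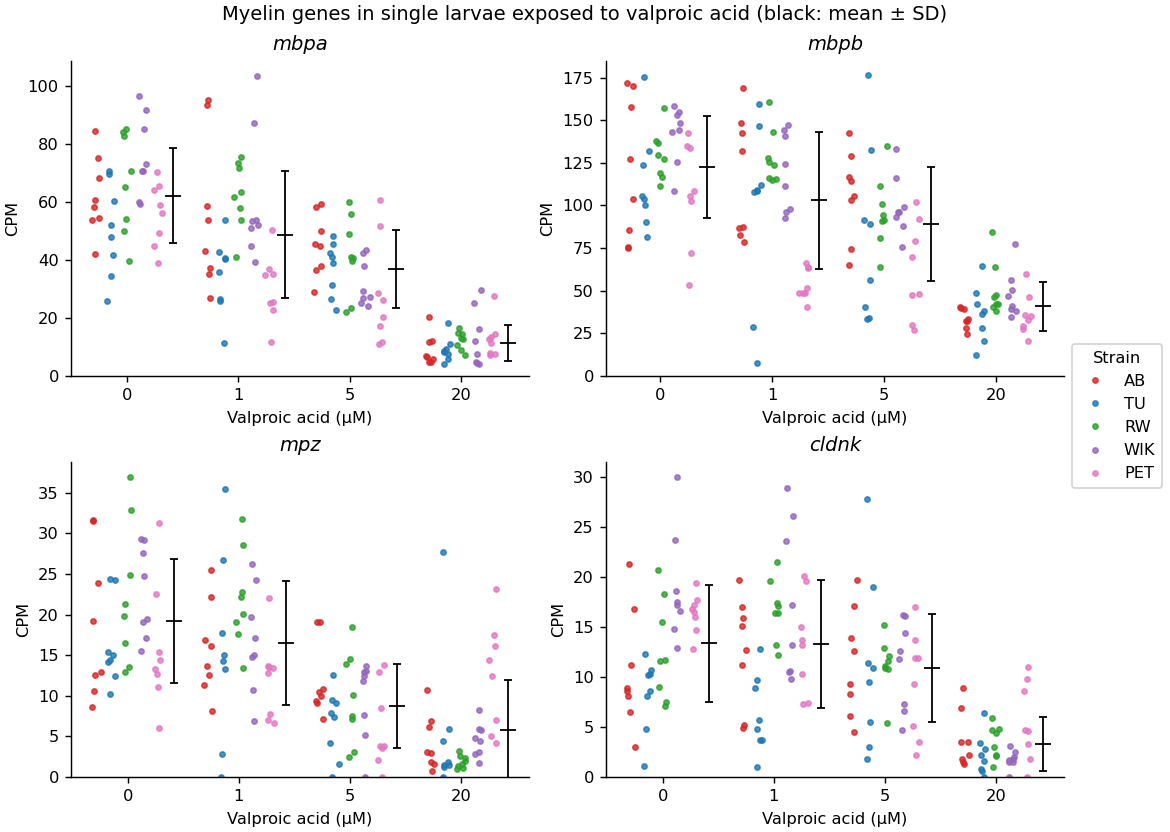
CPM (y axis) of each myelin gene in single larvae at 0, 1, 5 and 20 µM of valproic acid (x axis), 1 point per larva, coloured by strain, with the mean and SD of 40 larvae in black at the right of each dose. The mean of each gene is lowest at 20 µM, where it is 11.2 CPM for mbpa, against 62.2 CPM at 0.

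For mpz, the range at 20 µM was 0 to 27.7 CPM (median 3.10), against 6.04 to 36.9 CPM (median 16.8) at 0. Of the larvae at 20 µM, 32 of 40 were below every control of their strain and 1 was above. At 5 µM, with 0 to 19.1 CPM (median 9.08), 26 of 40 larvae were below every control of their strain and none was above. The mean was 19.2 ± 7.69 CPM at 0, 16.5 ± 7.66 at 1 µM, 8.72 ± 5.15 at 5 µM and 5.72 ± 6.26 at 20 µM (SD, n = 40 each). Against 0, log2 fold changes of mpz were -0.20 (adjusted p = 0.730) at 1 µM, -1.08 (SE 0.20, adjusted p = 0.000125) at 5 µM and -1.96 (SE 0.22, adjusted p = 2.39e-14, edgeR) at 20 µM. The difference between 20 and 5 µM, -0.88 (adjusted p = 0.00145), was no longer called without AB (-0.70, adjusted p = 0.0546) or without RW (-0.55, adjusted p = 0.179), and it was larger without PET (-1.53) or without the shallower larvae (-1.86, adjusted p = 2.40e-13).

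For cldnk, 0 to 10.97 CPM (median 2.35) were measured at 20 µM, against 1.04 to 30.0 CPM (median 12.8) at 0, and 31 of 40 larvae were below every control of their strain. The mean was 13.4 ± 5.89 CPM at 0, 13.3 ± 6.396 at 1 µM, 10.9 ± 5.41 at 5 µM and 3.31 ± 2.70 at 20 µM (SD, n = 40 each). The log2 fold change was -0.23 (SE 0.18, adjusted p = 0.618) at 5 µM and -1.98 (SE 0.19, adjusted p = 3.90e-18, edgeR) at 20 µM. Between 20 and 5 µM it was -1.74 (adjusted p = 1.81e-14). The counts behind these levels were small, with a median of 6 at 20 µM and 36.5 at 0.

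At 1 µM, 2 of the 4 genes (mbpa and mbpb) had an unadjusted p under 0.05 in edgeR's quasi-likelihood test. DESeq2 called none of the 4, but it gave an adjusted p to only 1968 genes at this dose, of which it called 212. Genes without an adjusted p could not be called, so this is not read as a second negative result. Shallow larvae were unevenly spread, since 28 of 40 larvae at 20 µM, 27 at 5 µM, 30 at 1 µM and 38 at 0 had at least 0.5 times the median total count of the experiment. Without the shallower larvae, the same 3 genes at 5 µM and the same 4 genes at 20 µM were called lower. Among the 28 deeper larvae at 20 µM, 28 were below every deeper control of their strain for mbpa, mbpb and mpz, and 23 for cldnk. The depth cut also fell unevenly on strains. At 20 µM it kept 1 of 8 PET larvae and 8 of 8 RW larvae, and at 5 µM 2 of 8 PET and 3 of 8 TU larvae. With all larvae kept, 2 of 8 PET larvae at 20 µM were below every PET control for mpz. The counts of deeper larvae therefore say little about PET. When larvae were scaled by total count alone, the median log2 fold change of all genes tested at 20 µM was 0.25, and 26.2% of called genes were lower, against 56.0% with TMM. Each of the 4 genes was called lower with that scaling too, as it was under all 12 alternatives tried.

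**Figure D2:**
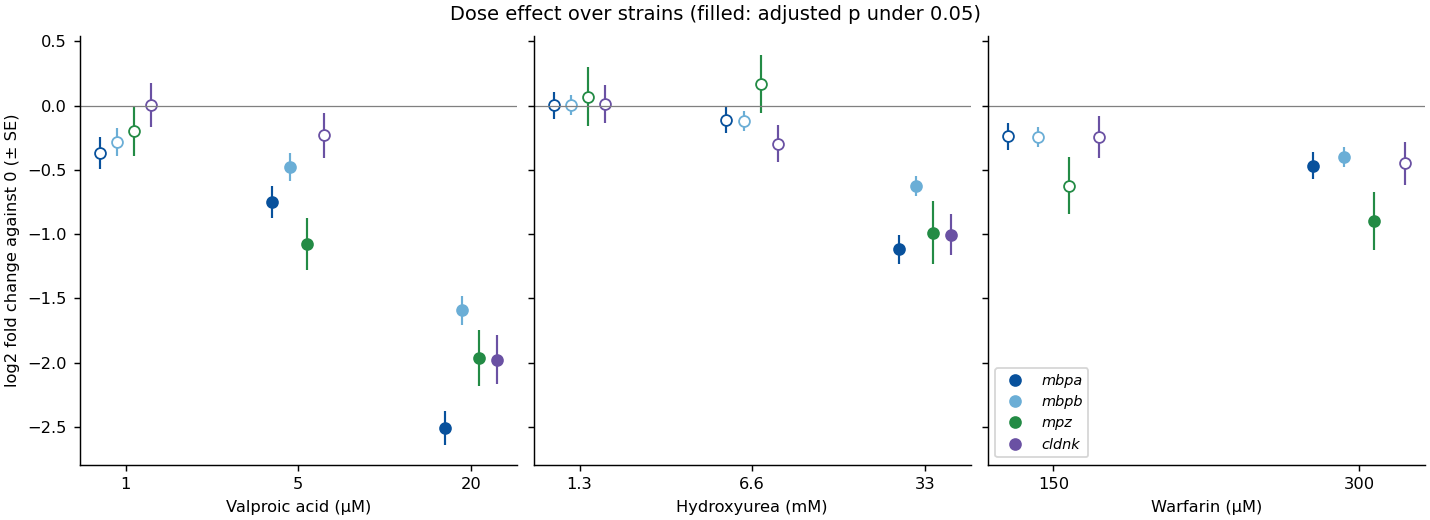
Log2 fold change against 0 (y axis, ± SE) of the 4 genes over strains at each dose (x axis) of valproic acid, hydroxyurea and warfarin, with filled points for an adjusted p under 0.05. With valproic acid, 3 points are filled at 5 µM and 4 at 20 µM, with hydroxyurea 4 at 33 mM and with warfarin 3 at 300 µM, all below 0.

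The dose effect was next examined within strains, where strain cannot be told apart from clutch. Depth also differed between strains, with a median total count of 1053357.5 in PET and 6718419.5 in RW in the experiment with valproic acid. At 20 µM of valproic acid, mbpa, mbpb and cldnk were called lower in each of the 5 strains and mpz in 4, where the share of all 21073 genes tested that was called lower was 4.48% in AB, 3.2% in TU, 4.4% in RW, 6.46% in WIK and 5.51% in PET. Fitted on its own larvae, TU kept 2 of its 4 calls, and mpz (adjusted p = 0.116) and cldnk (adjusted p = 0.0809) were not called. The log2 fold changes of mbpa spanned -2.86 to -2.12 among strains and those of mbpb -1.85 to -1.36. The genes mpz and cldnk varied more. The strain by dose interaction, which tests the difference between strains itself, was called for mpz over all doses (adjusted p = 0.000394, edgeR) and at 20 µM (adjusted p = 0.00109), where 13.1% and 7.49% of all genes tested were called. For cldnk it was called over all doses (adjusted p = 0.0499) but not at 20 µM (adjusted p = 0.0921), and the first was lost after adding the log10 total count to the model (adjusted p = 0.0944). For mbpa and mbpb no interaction was called (lowest adjusted p = 0.122).

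In RW larvae, mpz fell to 0.963 to 3.16 CPM (median 1.74) at 20 µM, against 12.97 to 36.9 CPM (median 20.5) at 0, with no overlap (log2 fold change -3.55, SE 0.43, adjusted p = 7.56e-12, 8 larvae each, edgeR). In PET larvae, it had 4.22 to 23.2 CPM (median 13.4) at 20 µM, against 6.04 to 31.2 CPM (median 13.9) at 0, with wide overlap (log2 fold change -0.34, SE 0.41, adjusted p = 0.734). In AB, TU and WIK, the log2 fold changes of mpz were -2.25, -1.94 and -2.36. At 5 µM, PET larvae had 0 to 13.8 CPM (median 3.77), a lower median than at 20 µM, and mpz was called lower there (log2 fold change -1.33, adjusted p = 0.0444). PET larvae were the shallowest of this experiment, with 349491 to 2020665 counts, and 13.5 mpz counts at the median at 20 µM. Only 1 of the 8 PET larvae at 20 µM had at least 0.5 times the median total count, and its 5.02 CPM was below every PET control. Over all doses, the interaction of mpz was still called with the log10 total count in the model. The part of depth in the PET result itself was not tested. Without PET, the log2 fold change of mpz over strains at 20 µM was -2.58, and without the shallower larvae it was -2.88.

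In WIK larvae, cldnk fell to 0 to 3.04 CPM (median 1.70) at 20 µM, against 12.9 to 30.0 CPM (median 17.4) at 0 (log2 fold change -3.36, SE 0.43, adjusted p = 2.09e-10, edgeR). In the other strains its log2 fold changes were -1.82 to -1.52. The WIK larvae had a median of 3.5 cldnk counts at 20 µM, against 4.5 in TU and 23.5 in RW, and the interaction of cldnk at this dose was not called. In PET, cldnk had 0 to 10.97 CPM (median 4.60) at 20 µM, against 12.8 to 19.4 CPM (median 16.7) at 0, also without overlap.

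Most calls within strains at the low doses were in PET larvae. At 1 µM, mbpa (log2 fold change -0.88, adjusted p = 0.0246) and mbpb (-0.99, adjusted p = 0.00376) were called lower in PET by edgeR, where 7.2% of all genes tested were, and none of the 4 was called at this dose in AB and RW (0.00475% of all genes called lower in each) or in TU and WIK (0%). For mbpb, PET larvae had 40.2 to 65.9 CPM (median 50.2) at 1 µM, against 53.3 to 143 CPM (median 107) at 0, and 5 of 8 were below every PET control. For mbpa, 7 of 8 PET larvae at 1 µM were below every PET control. At 5 µM, 3 of the 4 genes were called lower in PET (6.43% of all genes), mbpa in WIK (0.0427%), and none in AB (0.00475%), TU (0.133%) or RW (0.0332%). The interaction at 5 µM was not called for any of the 4 genes (lowest adjusted p = 0.347, 3.13% of all genes), so these calls do not show that strains differed, and the interaction at 1 µM alone was not tested. When PET larvae were fitted on their own, 1 gene remained called at 1 µM and 2 at 5 µM. Fitted alone at 5 µM, mbpa was not called in WIK (adjusted p = 0.0671), and mpz was called in RW (log2 fold change -1.20, adjusted p = 0.0275). The median total count in PET was 960618.5 at 1 µM and 727935.5 at 5 µM, against 1557113 at 0, and the part of this in the calls was not tested.

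**Figure D3:**
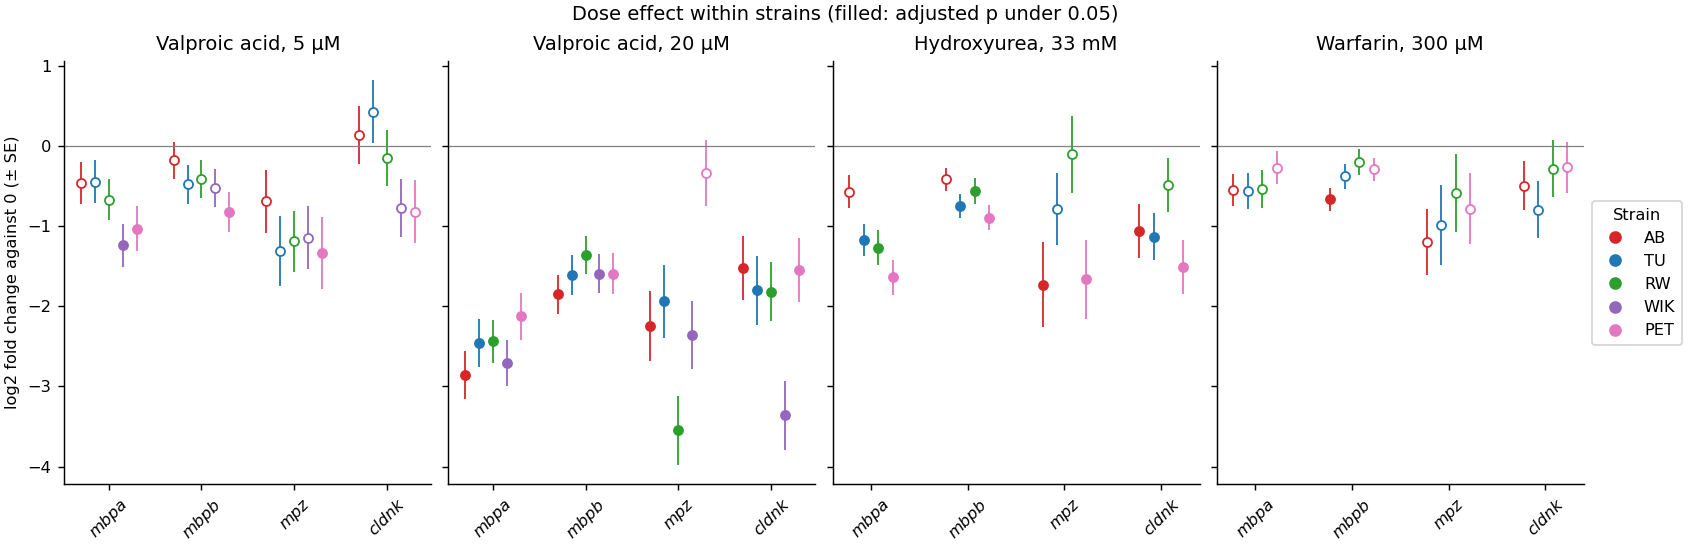
Log2 fold change against 0 (y axis, ± SE) of each gene (x axis) within strains, coloured by strain, at 5 and 20 µM of valproic acid, 33 mM of hydroxyurea and 300 µM of warfarin, with filled points for an adjusted p under 0.05. At 20 µM the points of mbpa and mbpb lie close together, whereas mpz spans -3.55 in RW to -0.34 in PET. The points of cldnk reach -3.36 in WIK, but its interaction at this dose was not called.

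Untreated larvae of the strains were compared to see whether they started from different levels. In the experiment with valproic acid, cldnk was lower in TU than in the other strains (log2 fold change -0.72, adjusted p = 0.0391) and higher in WIK (0.70, adjusted p = 0.0218), and mbpa was higher in WIK (0.39, adjusted p = 0.0485, edgeR). Of all genes tested, 23.6% were called for TU and 20.8% for WIK, and none of these 3 calls was kept once the log10 total count entered the model. In AB, RW and PET of this experiment (2.09%, 24.4% and 26.6% of all genes called), none of the 4 genes was called or had an unadjusted p under 0.05. In the experiment with hydroxyurea (12% of all genes called for AB, 2.93% for TU, 0.651% for RW and 3.39% for PET) and in that with warfarin (1.31%, 6.31%, 0.697% and 1.03% in the same order) none was called for any strain either, with an unadjusted p under 0.05 for 1 gene in TU with hydroxyurea and none elsewhere in these 2 experiments. Over strains, mean levels at 0 differed more between experiments for some genes than for others, although CPM was normalized within each experiment and these values were not tested. For mpz the means at 0 were 19.2 CPM in the experiment with valproic acid, 9.33 in that with hydroxyurea and 10.3 in that with warfarin. For mbpb they were 123, 126 and 140.4 CPM in the same order.

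At 33 mM of hydroxyurea, all 4 genes were lower, with log2 fold changes of -1.12 (mbpa) to -0.62 (mbpb). Over all 15042 genes tested, 12.5% were called lower at 33 mM and the median log2 fold change was 0.02. At 1.3 mM (0.00665% of all genes called in either direction) and at 6.6 mM (1.15%), edgeR and DESeq2 called none of the 4 genes, and only cldnk at 6.6 mM had an unadjusted p under 0.05 in edgeR (log2 fold change -0.30, adjusted p = 0.556). Between 33 and 6.6 mM the same 4 genes were called lower, where 10.1% of all genes tested were.

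For mbpa, the range was 9.61 to 44.8 CPM (median 21.9) in 26 larvae at 33 mM, against 29.1 to 61.2 CPM (median 48.7) in 24 larvae at 0, and 22 of 26 larvae were below every control of their strain. This gave a log2 fold change of -1.12 (SE 0.11, adjusted p = 9.72e-16, edgeR), and the means of mbpa at 0, 1.3, 6.6 and 33 mM were 48.4 ± 6.44, 48.1 ± 14.2, 45.4 ± 12.2 and 22.9 ± 8.20 CPM (SD, n = 24, 26, 28 and 26).

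The level of mbpb was 44.2 to 127 CPM (median 79.8) at 33 mM, against 98.0 to 179.8 CPM (median 120.1) at 0. With 22 of 26 larvae below every control of their strain, its log2 fold change was -0.62 (SE 0.08, adjusted p = 6.03e-11, edgeR). For cldnk, 0 to 17.3 CPM (median 7.11) were measured at 33 mM, against 6.24 to 22.0 CPM (median 13.7) at 0, and 20 of 26 larvae were below every control of their strain (log2 fold change -1.01, SE 0.16, adjusted p = 1.34e-07). For mpz, the range was 0 to 17.1 CPM (median 3.70) at 33 mM, against 0.921 to 20.9 CPM (median 8.52) at 0. Of its 26 larvae at 33 mM, 15 were below every control of their strain and 2 were above. Its log2 fold change was -0.99 (SE 0.25, adjusted p = 0.000984), and it was not called without PET (-0.79, adjusted p = 0.0647). Without shallower larvae the same 4 genes were called. Of the 19 deeper larvae at 33 mM, 18 were below every deeper control of their strain for mbpa and mbpb, 16 for cldnk and 15 for mpz. The shallowest strain here was AB (median total count 858849.5), and 1 of its 7 larvae at 33 mM was kept. These counts therefore say little about AB. With all larvae kept, 3 of 7 AB larvae at 33 mM were below every AB control for mbpa, mbpb and cldnk, and 4 for mpz.

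Within strains at 33 mM, all 4 genes were called lower in PET (5.76% of 17236 genes tested), 3 in TU (3.83%), 2 in AB (4.76%) and 2 in RW (3.94%). In AB these were mpz and cldnk, and in RW mbpa and mbpb. The log2 fold change of mpz was -0.10 in RW (adjusted p = 0.953) and -1.73 in AB (adjusted p = 0.0289, edgeR). That of mbpa spanned -1.64 to -0.57 among strains, and its interaction at 33 mM had the lowest unadjusted p of the 4 genes (0.00552, edgeR). However, no interaction was called for any of the 4 genes at 33 mM (lowest adjusted p = 0.166, 0.772% of all genes called) or over all doses (lowest adjusted p = 0.125, 2.83%), so a difference between strains was not shown. With single RW larvae at 0 left out, the log2 fold change of mpz in RW ranged from -0.40 to 0.08, and 1 of these 4 larvae had 1 mpz count (0.921 CPM), against 7.77 to 10.3 CPM in the other three. AB larvae had a median of 2 mpz counts at 33 mM, with none in 2 of 7 larvae, against a median of 13 at 0. Fitted on its own larvae, AB had no called gene among the 4. Without replicate 3 of RW at 0, 1 gene was called in RW, and without replicate 5 of PET at 33 mM, mpz was no longer called in PET (log2 fold change -1.47, adjusted p = 0.0811).

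At 300 µM of warfarin, mpz, mbpa and mbpb were lower, and the log2 fold changes were smaller than 1 in size for all 4 genes. These were 3 of the 4 genes, where 4.95% of 13482 genes tested were called lower. At 150 µM (3.19% of all genes called in either direction) edgeR called none of the 4 genes, although mbpa, mbpb and mpz had an unadjusted p under 0.05. DESeq2 called mbpb there (log2 fold change -0.25, adjusted p = 0.0133). Between 300 and 150 µM (1.25% of all genes called) neither tool called any of the 4, and 2 had an unadjusted p under 0.05 in edgeR. DESeq2 gave an adjusted p to only 6685 genes at 150 µM and 11651 between 300 and 150 µM, and could call no others.

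For mbpb, 25 larvae at 300 µM had 53.3 to 142 CPM (median 105), against 93.5 to 203 CPM (median 136) in 25 larvae at 0, and 15 of 25 were below every control of their strain. The means were 140.4 ± 25.7 CPM at 0, 119 ± 24.4 at 150 µM (26 larvae) and 106 ± 18.4 at 300 µM (SD), and the log2 fold change at 300 µM was -0.40 (SE 0.08, adjusted p = 6.28e-05, edgeR). For mbpa, the range was 19.2 to 52.9 CPM (median 31.1) at 300 µM, against 20.1 to 69.5 CPM (median 47.7) at 0. Only 7 of 25 larvae were below every control of their strain, and the log2 fold change was -0.47 (SE 0.11, adjusted p = 0.000807). For mpz, 0.804 to 12.2 CPM (median 5.03) were measured at 300 µM, against 1.39 to 20.5 CPM (median 9.42) at 0 (log2 fold change -0.90, SE 0.23, adjusted p = 0.00310). Without AB larvae only mbpa was called, with log2 fold changes of -0.30 (adjusted p = 0.0550) for mbpb and -0.78 (adjusted p = 0.0765) for mpz. Without shallower larvae the same 3 genes were called at 300 µM.

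The gene cldnk was not called at 300 µM. Its mean was 11.4 ± 3.91 CPM at 300 µM, against 15.6 ± 7.11 at 0 (log2 fold change -0.45, adjusted p = 0.0791, edgeR). Within strains only mbpb in AB was called at 300 µM (log2 fold change -0.67, adjusted p = 0.00106), with 85.0 to 115 CPM (median 95.9) against 118 to 203 CPM (median 153) at 0 and no overlap, where 1.64% of 14826 genes tested were called lower in AB. In TU, RW and PET, 1.8%, 1.22% and 0.465% of all genes were called lower, and the interaction was not called for any of the 4 genes at 300 µM (lowest adjusted p = 0.838, 0.391% of all genes called) or over all doses (lowest adjusted p = 0.707, 0.546%).

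**Figure D4:**
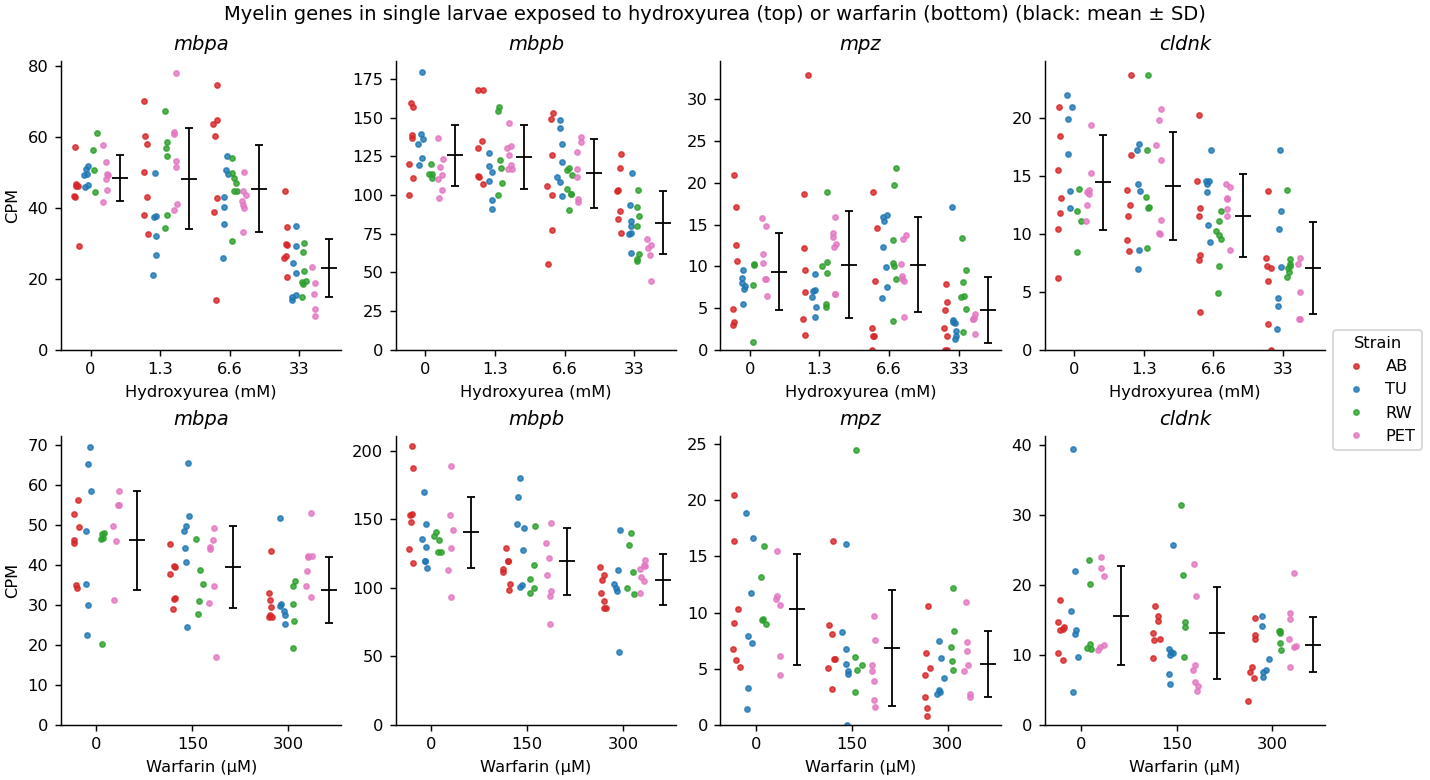
CPM (y axes) of each myelin gene in single larvae at each dose (x axes) of hydroxyurea (top) and warfarin (bottom), 1 point per larva, coloured by strain, with the mean and SD in black at the right of each dose. With hydroxyurea the points of mbpa sit around 22.9 CPM at 33 mM, against 48.4 CPM at 0, and with warfarin the points of each dose overlap for each gene.

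The copies mbpa and mbpb were compared within each larva, as the difference of their log2 CPM, a comparison chosen after their values were seen. Both copies come from the same library, so depth is shared, but the way shared reads were counted could move them against each other. The 5 tests permuted doses within strains (two-sided, 100000 permutations, Benjamini-Hochberg adjustment over the 5).

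With valproic acid at 20 µM, the measured levels of both copies of myelin basic protein fell, but not by the same amount. Since the comparison was chosen from these same values, its p-values are not independent support for the difference. The difference mbpa minus mbpb was -1.89 ± 0.79 at 20 µM of valproic acid, against -0.98 ± 0.45 at 0 (SD, n = 40 each), a change of -0.92 that was lower in each of 5 strains (permutation p = 1e-05, the lowest value this number of permutations allows, adjusted p = 5e-05). The change was -0.27 at 5 µM (adjusted p = 0.0328, permutation, lower in 4 of 5 strains and 0.28 in the other), -0.08 at 1 µM (adjusted p = 0.721), -0.52 at 33 mM of hydroxyurea (adjusted p = 0.00025, lower in 4 of 4 strains) and -0.04 at 300 µM of warfarin (adjusted p = 0.773).

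**Figure D5:**
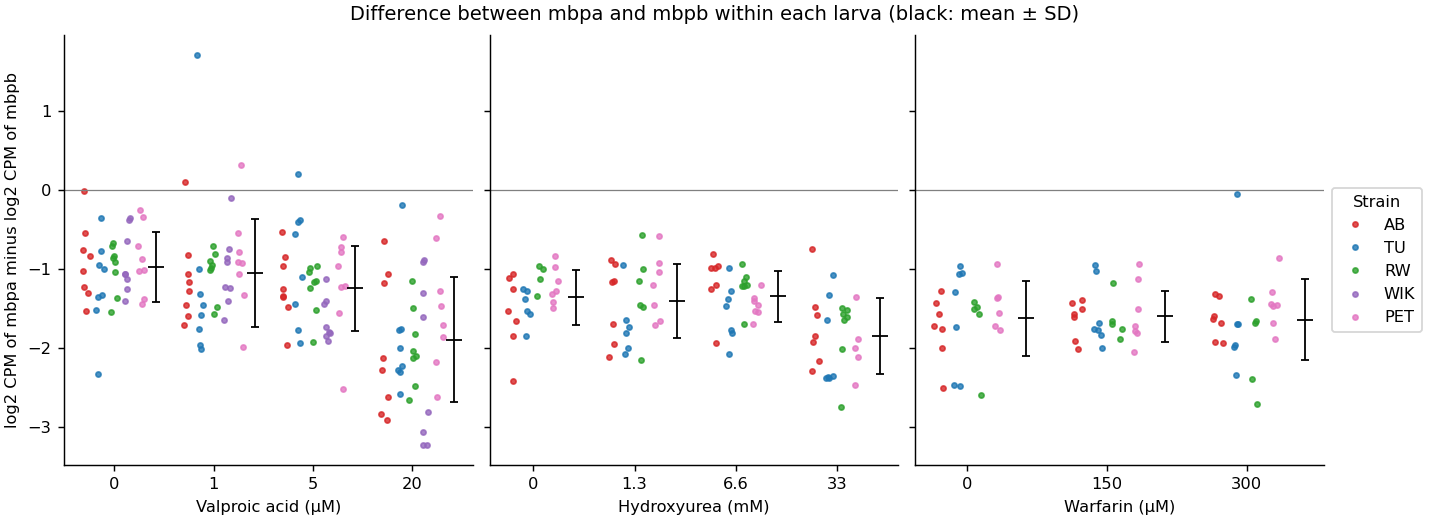
Log2 CPM of mbpa minus log2 CPM of mbpb (y axis) within each larva at each dose (x axes) of the 3 compounds, 1 point per larva, coloured by strain, with the mean and SD in black at the right of each dose. Points below 0 have less mbpa than mbpb in CPM, and the mean is -0.98 at 0 and -1.89 at 20 µM of valproic acid.

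Other genes of myelin and of mature myelinating glia, from a list of 24 of which 20 were in the table, did not all move with these 4. At 20 µM of valproic acid, 1 of the 17 tested was called lower (11.5% of all genes) and 5 higher (8.99% of all genes were called higher), with a median log2 fold change of 0.03, against 0.09 over all genes. The gene called lower was cd59, a membrane inhibitor of complement, with 4.16 ± 3.07 CPM at 20 µM, against 26.4 ± 10.2 at 0 (log2 fold change -2.64, adjusted p = 7.40e-31, edgeR). Among those called higher, cldn11a, a claudin, had 55.2 ± 18.3 CPM at 20 µM, against 32.65 ± 11.97 at 0 (log2 fold change 0.76, adjusted p = 1.90e-08). The phosphodiesterase gene enpp6, a marker of newly formed oligodendrocytes in mammals, was called higher with a log2 fold change of 0.44 (adjusted p = 0.0421). The peripheral myelin protein genes pmp22a and pmp22b, which are also expressed outside nerves, were called higher with 0.36 (adjusted p = 7.43e-07) and 0.28 (adjusted p = 0.0184).

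At 5 µM, cd59 was the only one of these 17 genes called (log2 fold change -0.99, adjusted p = 6.33e-06, edgeR), where 2.17% of all genes were called lower. At 300 µM of warfarin it was the only one of 16 (log2 fold change -0.75, adjusted p = 2.85e-05), where 4.95% of all genes were lower and 4.66% higher. With so few genes in the list, no difference from these shares is read from either count. At 33 mM of hydroxyurea, 6 of 17 were called lower (12.5% of all genes) and none higher (10.3% of all genes were called higher), with a median of -0.22, against 0.02 over all genes. These included cd59 (-0.996, adjusted p = 1.56e-07), the gap junction gene cx27.5 (-1.23, adjusted p = 0.0126) and the contactin gene cntn1b (-0.58, adjusted p = 0.00356). For pmp22a and pmp22b at 33 mM the log2 fold changes were 0.17 (adjusted p = 0.0651) and 0.07 (adjusted p = 0.535).

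Genes of the oligodendrocyte and Schwann cell lineage, which precede or specify the myelinating cells, were not called lower with any compound at its highest dose. At 20 µM of valproic acid, 0 of 12 tested were lower (11.5% of all genes) and 2 were higher (8.99% of all genes). These were pdgfra, the receptor that marks oligodendrocyte precursors and is also expressed in mesenchyme, with 36.6 ± 11.1 CPM at 20 µM, against 23.0 ± 7.54 at 0 (log2 fold change 0.67, adjusted p = 1.47e-06, edgeR), and the transcription factor gene nkx2.2b (1.04, adjusted p = 0.0168). For nkx2.2a the log2 fold change was 0.21 (adjusted p = 0.120). With hydroxyurea at 33 mM, 1 of 8 was called, pdgfra (0.33, adjusted p = 0.0151, edgeR), where 12.5% of all genes were lower and 10.3% higher. At 300 µM of warfarin 0 of 8 were called, where 4.95% of all genes were lower and 4.66% higher. With so few genes in the list, no difference from these shares is read from the counts. The median log2 fold changes of this list were 0.09, -0.02 and 0.01 in that order, against 0.09, 0.02 and 0.00 over all genes. The summed level of the list was 101 to 228 CPM at 20 µM, against 94.9 to 145 CPM at 0.

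Genes of the M6 proteins, membrane glycoproteins that neurons express, were a list of 4. At 20 µM of valproic acid, 1 of 4 was called lower (11.5% of all genes), gpm6aa (log2 fold change -0.20, adjusted p = 0.0248, edgeR), and gpm6ab had -0.24 (adjusted p = 0.0694). With hydroxyurea at 33 mM, gpm6aa (-0.74, adjusted p = 3.27e-17) and gpm6ab (-0.57, adjusted p = 4.51e-10) were called lower, 2 of 4 (12.5% of all genes). At 300 µM of warfarin only gpm6ba was called lower (-0.61, adjusted p = 0.0426), 1 of 4 (4.95% of all genes).

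Of the list of 20 genes of neurons and axons, some were called lower at the doses where myelin genes were. At 20 µM of valproic acid, 10 of 20 were called lower (11.5% of all genes) and none higher, with a median log2 fold change of -0.46, against 0.09 over all genes. The stathmin gene stmn1b had 448 ± 149.7 CPM at 20 µM, against 674 ± 174 at 0 (log2 fold change -0.62, adjusted p = 2.22e-08, edgeR), and gng3, a G protein subunit gene of neurons, had a log2 fold change of -0.44 (adjusted p = 3.98e-05). The largest changes were those of the neurofilament gene nefla (-1.43, adjusted p = 4.11e-06), the synaptotagmin gene syt1a (-0.98, adjusted p = 1.55e-14) and the neurofilament gene nefmb (-0.76, adjusted p = 5.99e-05). At 5 µM, 4 of 20 were lower (2.17% of all genes). At 33 mM of hydroxyurea, 13 of 20 were lower (12.5% of all genes) and none higher (median -0.47, against 0.02 over all genes), among them snap25b (-0.95, adjusted p = 2.72e-16), a synaptic vesicle fusion gene. At 300 µM of warfarin, 2 of 18 were lower (4.95% of all genes), stmn1b (-0.19, adjusted p = 0.00859) and the synapsin gene syn2a (-0.36, adjusted p = 0.000892).

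The summed level of the 20 neuronal genes was 833 to 1990.5 CPM (median 1532) at 20 µM of valproic acid, against 1337 to 2675 CPM (median 2083) at 0. With hydroxyurea it was 754 to 1575 CPM (median 1267) at 33 mM, against 1195 to 2096 CPM (median 1785) at 0. With warfarin it was 1204 to 1674 CPM (median 1506) at 300 µM, against 1329.6 to 1965 CPM (median 1666) at 0. For the 4 myelin genes the summed level was 28.0 to 99.2 CPM (median 56.6) at 20 µM of valproic acid, against 129 to 305 CPM (median 219) at 0, without overlap. It was 58.4 to 169.8 CPM (median 119.8) at 33 mM of hydroxyurea, against 163 to 256 CPM (median 201) at 0, and 122 to 189 CPM (median 155) at 300 µM of warfarin, against 147 to 275 CPM (median 215) at 0. Of the 4 myelin genes, mbpb had the highest level and weighed most in their sum. The part of the lower neuronal levels in the myelin results was not tested.

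Defining genes of tissues were also called at these doses. Of 12 such genes (1 of them elavl3 of the brain), 9 were lower and 2 higher at 20 µM of valproic acid. At 33 mM of hydroxyurea 4 were lower and 2 higher, and at 300 µM of warfarin 5 were lower and 0 higher. Of all genes, 11.5%, 12.5% and 4.95% were lower and 8.99%, 10.3% and 4.66% higher, in that order. The median log2 fold change of the 12 was -0.93, 0.001 and -0.15. The genes prss1, fabp10a, fabp2 and crygm2d1, given below, were called lower with each compound at its highest dose and do not stand for the 12. At 33 mM of hydroxyurea they were the only ones of the 12 called lower. Those called higher are not named. The trypsin gene prss1, of the exocrine pancreas, had 69.7 ± 30.7 CPM at 20 µM of valproic acid, against 1488 ± 684 at 0 (log2 fold change -4.43, adjusted p = 8.68e-56, edgeR). It had 200.4 ± 103 CPM at 33 mM of hydroxyurea, against 1224 ± 358 at 0, and 528 ± 231 CPM at 300 µM of warfarin, against 1617 ± 436 at 0. The fatty acid binding protein genes fabp10a (liver) and fabp2 (gut) and the lens crystallin gene crygm2d1 were called lower with each compound at its highest dose too, with log2 fold changes of -3.46, -2.19 and -1.51 in larvae given valproic acid. In the same gene order, the log2 fold changes were -1.24, -2.06 and -1.16 in larvae given hydroxyurea. In those given warfarin they were -0.58, -0.61 and -0.63. The summed level of the 12 genes was 7901 to 31627 CPM (median 18046) at 20 µM of valproic acid, against 11916 to 40194 CPM (median 26108) at 0. It was 21620 to 46182 CPM (median 32012.5) at 33 mM of hydroxyurea, against 22094 to 37735 CPM (median 33598) at 0, and 22866 to 35440.4 CPM (median 29801) at 300 µM of warfarin, against 25147 to 38091 CPM (median 32061) at 0. Genes of high level weighed most in this sum. Over all untreated larvae the median was 11618 CPM for actc1b and 6964 for krt4, against 42.6 for myl7. The gene elavl3 was not called at the highest dose of any of the 3 compounds. The part of changes in other tissues in the myelin results was not tested.

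Among genes of radial glia and astroglia, 2 of 9 were called lower (11.5% of all genes) and 4 higher (8.99%) at 20 µM of valproic acid. The intermediate filament gene gfap had 173 ± 65.4 CPM at 20 µM, against 92.1 ± 39.2 at 0 (log2 fold change 0.92, adjusted p = 1.38e-16, edgeR). The Notch target gene her4.1 (0.97, adjusted p = 1.50e-09) and the lipid carrier gene fabp7a (0.68, adjusted p = 1.25e-06) were also higher, whereas the glutamine synthetase gene glula was lower (-0.25, adjusted p = 0.0385). At 33 mM of hydroxyurea, 2 of 9 were lower (12.5% of all genes), including glula (-0.83, adjusted p = 3.13e-18), and at 300 µM of warfarin 3 of 9 were lower (4.95% of all genes), including s100b (-0.81, adjusted p = 3.78e-07) and glula (-0.49, adjusted p = 8.93e-06).

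Among genes of microglia and macrophages, 2 of 9 were lower (11.5% of all genes) and 2 higher (8.99%) at 20 µM of valproic acid, 1 of 7 was lower (12.5%) and 5 were higher (10.3%) at 33 mM of hydroxyurea, and 1 of 6 was higher at 300 µM of warfarin (4.66% of all genes were called higher). The apolipoprotein gene apoeb had 771 ± 246 CPM at 33 mM of hydroxyurea, against 586 ± 117 at 0 (log2 fold change 0.41, adjusted p = 1.06e-05, edgeR). The receptor gene havcr1 was higher by 1.36 (adjusted p = 1.04e-07), while slc7a7 was lower (-0.36, adjusted p = 0.0431).

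Among larvae of 1 strain and dose, the measured levels of the 4 genes varied together only weakly from larva to larva. Counts were small for mpz and cldnk, with medians of 10 and 6 at 20 µM of valproic acid. The part of counting noise in this weak variation together was not tested. With valproic acid, Pearson's r between deviations of log2 CPM was highest for mbpb and mpz (0.38, larvae of 1 experiment, sharing library depth). It was lowest for mbpa and cldnk (0.03). This order did not hold in each experiment. For mbpb and mpz, r was 0.35 with hydroxyurea and 0.005 with warfarin, and for mbpa and cldnk 0.09 and 0.21. Among 11508 genes, those whose deviations were most like the mean of the 4, by the lowest r over the 3 experiments, were si:dkeyp-73b11.8 (0.40), si:ch211-255g12.6 (0.35), naca (0.33), which encodes a subunit of the nascent polypeptide-associated complex, cst3 (0.33), which encodes a cystatin, and wu:fb59d01 (0.33). After the slope on the total count was removed, 2 of these were still among the first 5. Such values are low, and no relation is read from them.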

How the data were processed

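What the authors deposited were estimated counts of genes (rows) in larvae (columns), without normalization. The submitters' processing notes name the genome build GRCz11 and Seurat 5.1.0, and the aligner and counter are not given in the sources used here. Of 31658 genes, 0.960% had no count. Values of 34 genes in 24 larvae were not whole, and the estimated counts were rounded. The planned tests assumed whole counts and were kept. Larvae were grouped by strain and dose from their labels.

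For each compound, all its larvae were tested together with edgeR 4.0.16 (R 4.3.3, limma 3.58.1). Genes were kept by filterByExpr (minimum count 10, minimum total count 15), normalized by TMM and fitted by edgeR's quasi-likelihood method, with dispersions that follow a trend. An additive model of strain and dose gave the dose effects over strains, and a model with 1 mean per strain and dose gave the effects within strains and the interactions. Each strain was compared with the mean of the others among larvae at 0. The 95% intervals were taken from the SE by the normal approximation. For log2 CPM a prior count of 2 was used, and genes were searched for a like pattern where their mean count was at least 10 in each experiment. The tests were also run on simulated data, in which all genes had the same dispersion and untreated strains did not differ. The measured data differ in both, so the shares recovered are not those of the measured data. With 200 changed genes among 18192, the dose test at 20 µM of valproic acid recovered 92% of those changed by 1 in log2. It recovered 98% of those changed by 2, and called 0 genes where none was changed. The interaction test at this dose, on 17677 genes with the changes in a single strain, recovered 4% and 56%. At 33 mM of hydroxyurea the interaction test recovered 0% and 40%, and at 300 µM of warfarin 1% and 47%. The dose test at 33 mM of hydroxyurea recovered 88% and 99%, and called 1 gene where none was changed. At 300 µM of warfarin the dose test recovered 90% and 96%, and called 0.

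The alternatives were DESeq2 size factors, total count only, no filter on low counts, the Wald test of DESeq2 1.42.0, the larva number as a block, the log10 total count as a covariate, shallow larvae left out (less than 0.5 times the median total of the experiment), each strain left out, each strain fitted alone, and single larvae left out of groups of 4 or 5. Named genes were the 4 myelin genes, from each list the 2 with the highest level in untreated larvae and up to 3 called genes with the largest change at the dose described, and the 5 genes of most like pattern. Defining genes of tissues were named outside this rule. Other members of the chosen set of myelin genes are not reported here, and patterns were compared with the mean of the 4. The genes and lists were chosen with earlier results of these data known.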

Additional observations from a re-analysis of the deposited data

Results flagged for a closer look

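Among 192 sets of 1 gene in 1 strain and dose, 19 larvae stood apart from the rest of their group by Dixon's test on log2 CPM, 14 of them low, and chance alone would set apart about 1 in 20 sets. The values below are given in CPM. On the log2 scale, the TU larva with 27.7 CPM of mpz at 20 µM of valproic acid was not set apart, although the next highest TU larva had 5.85 CPM.

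With valproic acid, the low values were 5.39 CPM of cldnk in an RW larva at 5 µM, 1.04 of cldnk in a TU larva at 0 and 11.1 of mbpa in a TU larva at 1 µM. A value of 0 was found for mpz in a WIK larva at 5 µM (189169 counts in total) and for cldnk in a WIK larva at 20 µM (614766 counts).

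With hydroxyurea, low values were 29.1 CPM of mbpa in an AB larva at 0, 13.9 of mbpa in an AB larva at 6.6 mM (352559 counts), 3.95 of mpz and 8.64 of cldnk in PET larvae at 6.6 mM, 1.92 of mpz in a PET larva at 33 mM, 0.921 of mpz in an RW larva at 0 and 30.6 of mbpa in an RW larva at 6.6 mM. High values were 13.8 of cldnk in an RW larva and 17.1 of mpz in a TU larva at 33 mM, where the other TU larvae had at most 3.54 CPM of mpz.

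With warfarin, low values were 20.1 CPM of mbpa in an RW larva at 0 and 0 of mpz in a TU larva at 150 µM (488708 counts). High values were 43.4 of mbpa in an AB larva at 300 µM, 25.7 of cldnk in a TU larva at 150 µM and 51.7 of mbpa in a TU larva at 300 µM (563143 counts).

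The response to valproic acid differed between strains for mpz over all doses (adjusted p = 0.000394, edgeR interaction test) and at 20 µM (adjusted p = 0.00109), and for cldnk over all doses (adjusted p = 0.0499), a call that was lost with the log10 total count in the model (adjusted p = 0.0944).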

How the results depend on the processing

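Of 253 refits of called dose effects over strains, 247 kept their call and direction and 6 lost the call, in each case without 1 strain. At 20 µM of valproic acid the log2 fold changes ranged over the 12 alternatives from -2.83 to -2.33 for mbpa, -1.67 to -1.42 for mbpb, -2.88 to -1.59 for mpz and -2.13 to -1.71 for cldnk. The number of the 4 genes called at 300 µM of warfarin was 1 without AB, against 3, and at 150 µM it was 1 with DESeq2 size factors, without shallow larvae, without TU or with the Wald test of DESeq2, against 0. Fitted alone, PET had 1 (against 2) at 1 µM and 2 (against 3) at 5 µM of valproic acid, RW 1 (against 0) and WIK 0 (against 1) at 5 µM, TU 2 (against 4) at 20 µM, AB 0 (against 2) at 33 mM of hydroxyurea, and AB 1 (against 0) at 150 µM and 2 (against 1) at 300 µM of warfarin. With the total count as a covariate, the interactions over all doses of valproic acid numbered 1 (against 2), and calls at 0 numbered 0 for TU (against 1) and 0 for WIK (against 2). With single larvae left out, calls in RW at 33 mM were 1 to 2. Over all genes, counts moved most at the low doses: 553 (no filter) or 212 (DESeq2) against 1 at 1 µM, and 1154 (no filter), 669 (DESeq2), 217 (covariate), 86 (without shallow larvae) or 56 (without PET) against 432 at 5 µM. The numbers of genes tested differed, with 18192 in the main test and 31232 with no filter. DESeq2 gave an adjusted p to 1968 genes at 1 µM and 12196 at 5 µM. At 20 µM 6048 genes were called with the total count only, against 3721. At 6.6 mM of hydroxyurea, 352 (no filter), 84 (without PET), 114 (without RW) or 88 (without TU) were called, against 173. With warfarin, 205 (without AB) or 242 (without RW) were called at 150 µM, against 430, and 673 (without AB) at 300 µM, against 1296. Of called genes, the share that was lower with the total count only, against TMM, was 59.2% against 91.2% at 5 µM of valproic acid, 39.5% against 54.9% at 33 mM of hydroxyurea and 24.3% against 51.5% at 300 µM of warfarin. With the covariate, 1083 interactions were called over all doses of valproic acid, against 2756. Depth limits cldnk and mpz most, whose counts per larva reached 0. Of the 5 genes of most like pattern, 2 stayed among the first 5 after the slope on the total count was removed.

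Signs that turned all belonged to log2 fold changes that were not called. At 1 µM of valproic acid cldnk turned to -0.056 without AB and -0.11 without RW. For hydroxyurea at 1.3 mM, mbpa turned to -0.016 without shallow larvae, -0.063 without AB and -0.081 without PET, mpz to -0.079 without shallow larvae, mbpb to -0.059 without PET and -0.037 without RW, and cldnk to -0.033 and -0.063 in the same order. At 6.6 mM mpz turned to -0.030 without TU. Fitted alone, mbpb in AB turned to 0.025 at 1.3 mM and mbpa in TU to -0.023 at 150 µM of warfarin. With the covariate at 0, cldnk in RW with valproic acid turned to 0.095, and with warfarin mpz turned to -0.13 in AB and 0.23 in TU. With single larvae left out, mbpa in RW at 1.3 mM ranged from -0.11 to 0.062, mpz in RW at 33 mM from -0.40 to 0.078, and cldnk in RW at 150 µM of warfarin from -0.069 to 0.46. The causes were not tested.

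With the larva number as a replicate block, 3 and 4 of the 4 genes were called at 5 and 20 µM of valproic acid, 4 at 33 mM of hydroxyurea and 3 at 300 µM of warfarin, so no count of calls among them changed, and the log2 fold change of mbpa at 1.3 mM of hydroxyurea turned to -0.00337. The block called 10 genes of all at 1 µM of valproic acid, against 1. The numbers gave no sign of pairing the larvae. Deviations of the same number had a mean r of 0.00675, 0.000229 and 0.000780 in the 3 experiments, against -0.000653, 0.000103 and 0.000482 for other numbers. Those that correlated best with their own number were 23 of 160, 16 of 104 and 9 of 76 larvae.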
